A study of Mus musculus with 23 samples.

Results

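The 33 genes described here encode lysosomal hydrolases, their activators, lysosomal membrane proteins and a pair of transcription factors that control lysosomal genes. They were taken by gene symbol from a list of lysosomal functions, and the rule uses no measured value, although the list was drawn up with earlier results of these data known. All 33 are among the 24940 genes of the deposited table for females and the 24434 of the table for males (22852 in both, 26522 in either). Each of the 33 passed the filter on low counts in both sexes, so none is left out below.

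RNA was sequenced in bulk from livers of 23 mice in 4 groups. The groups were 5 control males (replicates 1, 2, 3, 4 and 6 of the labels), 6 LKO males, 6 control females and 6 LKO females. LKO names the liver ablation of Cpt1a, the outer-membrane carnitine acyltransferase that admits long-chain fatty acids to mitochondrial oxidation. Every animal, controls included, was on the B100 background, had eaten a diet labelled WD for 16 weeks and was in the fed state when the liver was taken. The labels give neither the ages nor the Cre or promoter behind the ablation, so what other cells of the liver kept of the gene is not described by them.

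Lysosomes are acidic organelles in which hydrolases degrade material delivered by endocytosis, phagocytosis and autophagy. In liver, hepatocytes carry them in large number, and macrophages are especially rich in cathepsins and in lysosomal membrane glycoproteins. The factors TFEB and TFE3 bind a short palindromic motif, the CLEAR element built around the E-box CACGTG, in the promoters of many lysosomal genes. Gpnmb, a transmembrane glycoprotein of endolysosomes that lipid-laden macrophages express strongly, served here as the gene against which co-variation across livers was measured.

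Because these factors are themselves members, the RefSeq promoters of the set (build GRCm38.p6, the 250 bases before the annotated start) were searched for CACGTG and for the longer TCACGTGA, which contains it. Both are palindromes, so a match lies on both strands. Promoter windows were found for 29 of the 33 genes, and Ctsb, Ctsh, Npc1 and Asah1 had no entry. CACGTG occurred in 9 of the 29 genes (31.0%), against 6.86% of all 27025 genes with a window. TCACGTGA occurred in 4 of the 29 (13.8%), against 0.907% of all genes. The promoters of 4 members named below are printed 5′ to 3′ on the strand of the gene, with matches in capitals. Ctsd holds a match to each motif. Glb1 and Ctsl, which were called in no comparison below, hold CACGTG. Cd63 is shown because it changed most and holds neither. Hexa and Gusb, the other genes called in LKO females, hold neither motif as well.

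Ctsd, chr7:142387828-142388077, minus strand: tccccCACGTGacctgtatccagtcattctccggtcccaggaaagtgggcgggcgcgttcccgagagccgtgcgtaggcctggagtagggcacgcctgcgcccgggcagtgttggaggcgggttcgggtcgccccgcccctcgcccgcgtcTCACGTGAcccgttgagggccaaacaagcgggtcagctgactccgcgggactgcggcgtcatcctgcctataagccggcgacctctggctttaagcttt
Glb1, chr9:114400828-114401077, plus strand: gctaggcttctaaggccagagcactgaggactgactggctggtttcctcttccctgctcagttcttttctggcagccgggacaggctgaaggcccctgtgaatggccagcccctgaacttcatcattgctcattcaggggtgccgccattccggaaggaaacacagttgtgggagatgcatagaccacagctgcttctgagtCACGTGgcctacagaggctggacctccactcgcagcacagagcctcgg
Ctsl, chr13:64370521-64370770, minus strand: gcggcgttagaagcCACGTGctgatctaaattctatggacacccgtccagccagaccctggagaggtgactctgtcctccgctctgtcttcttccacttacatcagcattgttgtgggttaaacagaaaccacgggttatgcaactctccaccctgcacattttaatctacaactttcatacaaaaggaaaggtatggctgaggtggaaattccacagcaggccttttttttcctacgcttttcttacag
Cd63, chr10:128909095-128909344, plus strand: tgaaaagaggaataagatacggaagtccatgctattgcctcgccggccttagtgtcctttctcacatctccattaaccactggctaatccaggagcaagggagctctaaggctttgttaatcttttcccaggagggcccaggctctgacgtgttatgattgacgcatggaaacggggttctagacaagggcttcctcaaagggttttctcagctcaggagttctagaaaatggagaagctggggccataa

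In Ctsd the first match begins 245 bases before the start and the second 99 bases before it. The match in Glb1 begins 48 bases before the start and that in Ctsl 236 bases before it. A match describes these letters and is not a measured binding site, and the absence of one in Cd63 says nothing about the factors.

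The coordinates of the tables place Cd63 and Ctsd away from their GRCm38 windows above, so the assembly is another one. The submitters' processing notes name mm39. In the coordinates of the tables Cd63 (ENSMUSG00000025351) spans chr10:128736858-128748691 and Hexa (ENSMUSG00000025232) chr9:59446823-59472392, both on the plus strand. Gusb (ENSMUSG00000025534) spans chr5:130017852-130031890 on the minus strand. Psap (ENSMUSG00000004207) spans chr10:60113449-60138376 on the plus strand, Ctsd (ENSMUSG00000007891) chr7:141929648-141941775 and Lamp2 (ENSMUSG00000016534) chrX:37490234-37545331, both on the minus strand. All are annotated as protein-coding, and counts are over whole genes.

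Libraries held 14224665 to 19626662 counts in total, and the 33 genes took 0.478 to 0.767% of them. Cpt1a checked the labels: it was 285 to 431 CPM (counts scaled to library size with TMM factors) in control females and 61.8 to 86.4 in LKO females, 303 to 431 in control males and 42.2 to 96.8 in LKO males, with no overlap in either sex. All 16 macrophage markers and all 7 hepatocyte markers listed for the check of the tissue had counts in every library. Replicates are livers that the labels number and do not describe further, so p-values measure the spread between these samples. In bulk tissue, fewer cells of a type and less RNA per cell cannot be told apart.

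Length-scaled levels spanned more than 2 orders of magnitude within the set and kept much the same order in all groups. On the FPKM scale (fragments scaled by gene length and library size, as deposited), Psap, the precursor of the saposins that present sphingolipids to their hydrolases, stood at 231 ± 13.9 in control females (SD, n = 6). Ctsz, a carboxypeptidase, stood at 230.6 ± 23.5 (SD, n = 6) and Lamp1, a heavily glycosylated protein of the limiting membrane, at 211 ± 5.33 (SD, n = 6) in the same livers. The order among these neighbours was not tested, and the same 3 genes held the first 3 places in each of the 4 groups. Ctsb, a cysteine protease, and Ctsd, an aspartic protease, followed in every group. At the other end, Ctsk, a collagen-degrading cathepsin best known from osteoclasts, had the lowest level in each group, from 0.697 ± 0.326 in control females (SD, n = 6) to 1.38 ± 0.582 FPKM in LKO males (SD, n = 6). The median gene stood between 19.1 and 21 FPKM in all groups. Cd63, a tetraspanin of late endosomes and lysosomes, moved most in rank: it was the 31st gene of 33 in control females, at 2.71 ± 0.640 FPKM (SD, n = 6), the 27th in LKO females at 7.39 ± 2.58 (SD, n = 6) and the 22nd in control males at 9.91 ± 9.0 (SD, n = 5).

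**Figure D1:**
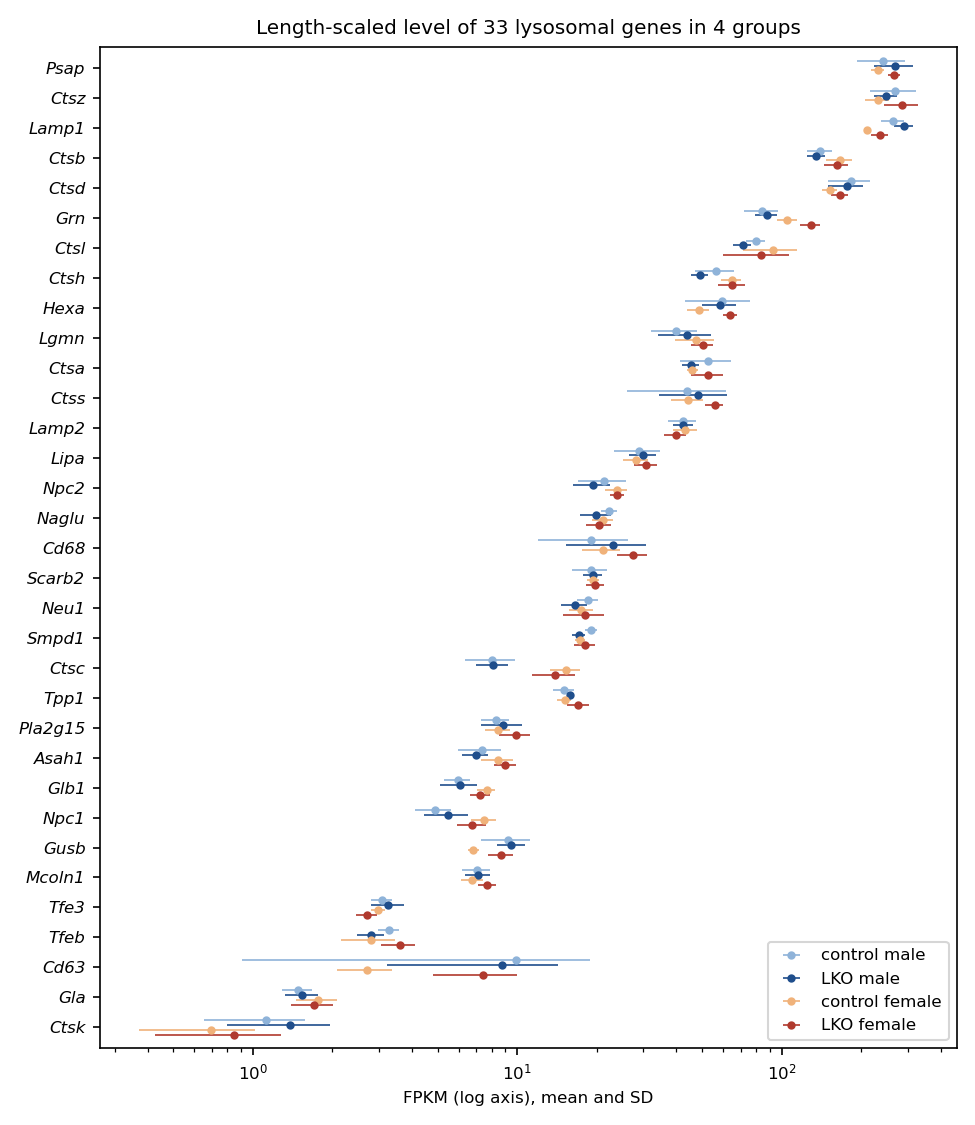
Mean deposited FPKM with SD of the 33 genes in each of the 4 groups, on a log axis, ordered by level. The groups lie close together for most genes. For Cd63 the mean is lowest in control females (2.71 FPKM), and the SD in control males (9.0) is nearly as large as their mean (9.91). Control females were not tested against males.

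The comparison of LKO with control females asks how lysosomal transcripts differ after the ablation. Of the 33 genes 3 rose, namely Cd63 and the glycosidases Hexa and Gusb, and none fell. That is 9.09% of the set against 0.928% of all 13684 genes tested that were called higher (edgeR quasi-likelihood test, adjusted p under 0.05 over all genes). At an unadjusted p under 0.05, 14 of the 33 (42.4%) were higher in LKO females, against 8.31% of all genes, and 0 were lower, against 7.33%. The log2 change, LKO over control, was positive for 24 of the 33, with a median of 0.13, against a median of 0.0051 for all genes tested. Extremes were uneven over the livers. LKO female 6 held the highest female value in 12 genes, and control female 4 held the lowest in 11. Control female 6 and LKO female 1 each held the highest in 6. How far the shares at an unadjusted p rest on single livers was not tested. LKO and control values did not overlap for Cd63, Hexa, Psap and Lamp1, each higher in LKO (12.1% of the set against 1.05% of all genes), and no member was lower without overlap (0.548% of all genes). Some lipid-associated macrophage markers also rose in LKO females, and the marker lists are given after the roles.

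Among the membrane proteins, Cd63 showed the largest change of the set. It was 7.77 to 13 CPM in control females, with a median of 9.44, and 15.8 to 39.3 in LKO females, with a median of 27.2. The lowest LKO liver was above the highest control. The log2 change was 1.45 (SE 0.22, edgeR adjusted p 0.00651), and it passed the threshold in all 12 fits that each left out 1 liver. Cd68, the macrophage scavenger glycoprotein of late endosomes, was 19.6 to 31.9 CPM (median 27) in control and 28.8 to 39.0 (median 35.8) in LKO females, with 4 of 6 LKO livers above every control. Its log2 change of 0.39 (SE 0.12) did not pass (edgeR adjusted p 0.116). Lamp1 was 549.9 to 584 CPM in controls and 589 to 711 in LKO females, without overlap, and its log2 change of 0.16 (SE 0.069) did not pass either (edgeR adjusted p 0.271). For the other membrane proteins, Lamp2, Npc1, Scarb2 and Mcoln1, the log2 change lay between -0.14 and 0.19 and none passed.

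Glycosidases remove sugars from glycolipids, glycoproteins and glycosaminoglycans. Hexa, the alpha subunit of beta-hexosaminidase that degrades GM2 ganglioside, was 87.3 to 114 CPM (median 95.3) in control and 118 to 141 (median 127) in LKO females, and the groups did not overlap. Its log2 change was 0.40 (SE 0.077, edgeR adjusted p 0.0176). Without control female replicate 5 the adjusted p was 0.0533. Gusb, beta-glucuronidase, was 29.1 to 33.1 CPM (median 30.9) in controls and 32 to 43.4 (median 40.7) in LKO females. In 5 of 6 LKO livers it was above every control. The log2 change was 0.35 (SE 0.079, edgeR adjusted p 0.0420), and the call was the least firm of the 3: it held in 2 of the 12 fits that left out 1 liver, and the adjusted p reached 0.110 without control female replicate 5. None of the 3 calls in females held in a fit of all 4 groups together, which pools the spread of both sexes (edgeR adjusted p 0.159 for Cd63, 0.160 for Hexa and 0.132 for Gusb). The other 4 glycosidases, Gla, Glb1, Naglu and Neu1, had log2 changes between -0.073 and 0.055, and none passed.

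No protease was called among the 11 cathepsins and related peptidases, of which 8 had a positive log2 change. Ctss, the cysteine protease of antigen-presenting cells, was 47.7 to 73.2 CPM (median 58.7) in control and 68.3 to 85.4 (median 75.4) in LKO females. Only the highest control, replicate 6, lay within the LKO range. The log2 change of 0.34 (SE 0.093) had an edgeR adjusted p of 0.0864, and without that control it passed at 0.41. Ctsz was 272 to 376 CPM in control and 359 to 525 in LKO females (log2 change 0.32, SE 0.10, edgeR adjusted p 0.139). Ctsl, a broad endopeptidase, spread widely within both groups, at 431 to 777 CPM in controls and 409 to 836 in LKO females, which overlapped throughout.

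Of the activators and lumenal carriers, Grn, the precursor of the granulins, was 337 to 409 CPM (median 349.9) in control and 403 to 499 (median 453) in LKO females. The highest control, again replicate 6, overlapped with the lowest LKO livers. Its log2 change of 0.30 (SE 0.081) did not pass (edgeR adjusted p 0.0908). Psap was 577 to 669 CPM (median 637) in control and 670.5 to 767 (median 743) in LKO females. These ranges met without overlapping, and the log2 change of 0.21 (SE 0.071) did not pass (edgeR adjusted p 0.149). Npc2, which hands cholesterol to Npc1, was at a log2 change of 0.011 (SE 0.078).

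The 4 lipid hydrolases, Lipa (acid lipase), Asah1 (acid ceramidase), Smpd1 (acid sphingomyelinase) and Pla2g15 (a phospholipase A2), all had small positive values of 0.074 to 0.22 on the log2 scale, and none passed. Lipa, the enzyme that frees cholesterol and fatty acids from lipoprotein lipids, stood at 0.13 (SE 0.089, edgeR adjusted p 0.525). The pair of transcription factors differed in sign. Tfeb was 12.1 to 22.4 CPM (median 15.4) in control and 17.3 to 24.3 (median 19.7) in LKO females, with 1 control, replicate 3, inside the LKO range. Its log2 change was 0.36 (SE 0.14, edgeR adjusted p 0.225), while Tfe3 stood at -0.14 (SE 0.076, edgeR adjusted p 0.411), so neither was called.

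**Figure D2:**
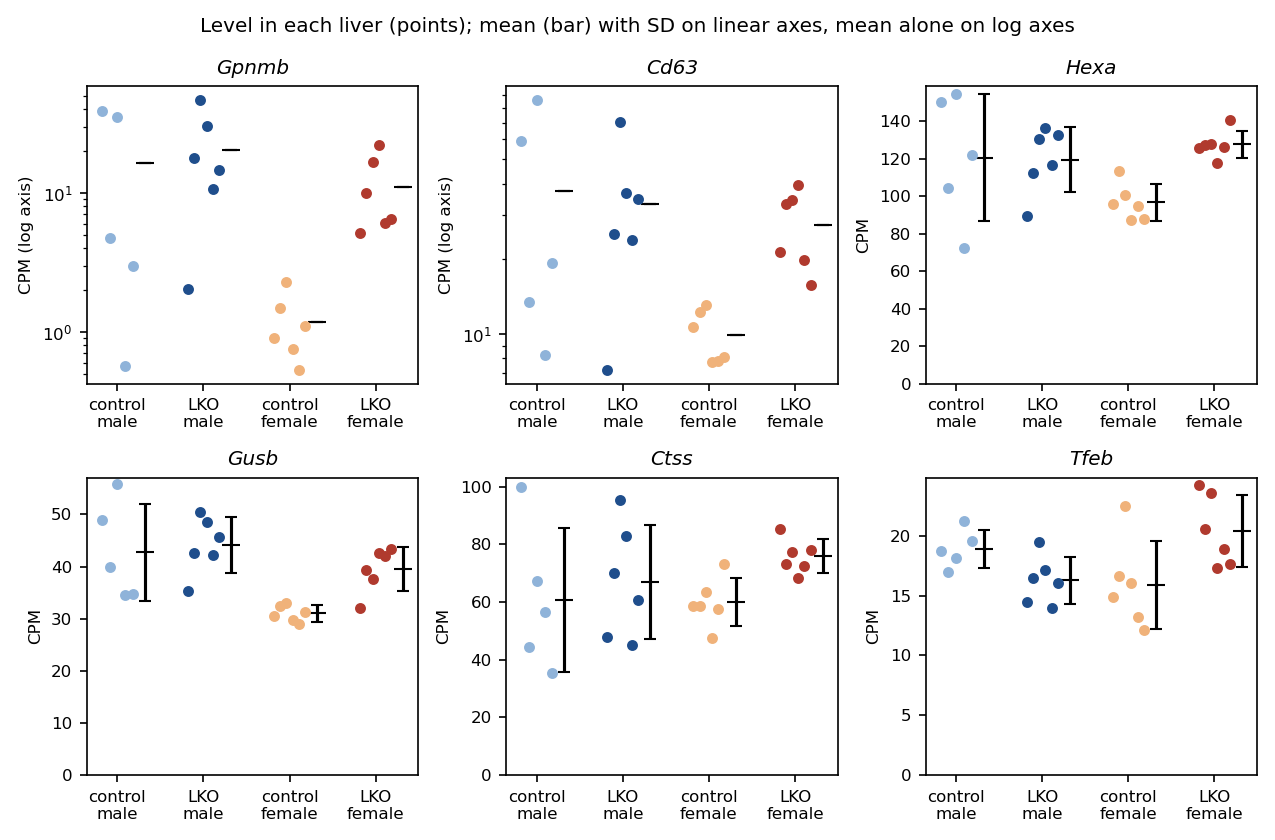
CPM of Gpnmb, Cd63, Hexa, Gusb, Ctss and Tfeb, 1 point per liver in the 4 groups, with log axes for Gpnmb and Cd63, bars for the mean and, on linear axes, the SD. LKO females lie above control females without overlap for Gpnmb, Cd63 and Hexa, while the 2 male groups overlap in all 6 genes.

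The authors' deposited table for females lists 6 of the 33 genes with an adjusted p under 0.05, all higher in LKO (18.2%, against 1.25% of the 24940 genes in that table). In the authors' deposited table Cd63 stands at a log2 change of 1.45, Hexa at 0.40 and Gusb at 0.35. The other 3 genes of the authors' deposited table are Psap (adjusted p 0.0213), Grn (0.0133) and Ctss (0.0274), which edgeR did not call.

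The same comparison in males called no member, and 1 of 13805 genes in all (0.00724%), which was Cpt1a. At an unadjusted p under 0.05 there were 2 of the 33 (6.06%), Smpd1 and Tfeb, both lower in LKO, against 12.5% of all genes. DESeq2 called 0 members too, and the authors' deposited table for males lists none with an adjusted p under 0.05 (0.438% of all genes in that table). No member was without overlap between control and LKO males, against 1.77% of all genes. The median log2 change was 0.022, against 0.010 for all genes.

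The levels of Cd63 in control males were 59.0, 13.4, 86.7, 8.25 and 19.3 CPM, and in LKO males 7.20 to 70.5 with a median of 29.9. Replicates 1 and 3 of the controls and replicate 3 of the LKO males had the highest Cd63 of the study, and both groups spanned nearly the whole range. The log2 change was -0.18 with an SE of 0.59 (edgeR adjusted p 0.939), and its sign turned to 0.41 without control male replicate 3. Hexa was 150.3, 104, 154, 72.1 and 122 CPM in control males and 89.5 to 136 (median 124) in LKO males, at a log2 change of -0.013 (SE 0.18, edgeR adjusted p 0.986). Gusb stood at 48.9, 39.9, 55.8, 34.6 and 34.7 CPM in control and 35.3 to 50.5 (median 44.1) in LKO males, at 0.044 (SE 0.13, edgeR adjusted p 0.933). The signs of both small values turned under some alternatives.

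The 4 lowest p-values in males belonged to Smpd1, Tfeb, Ctsl and Ctsh, all with lower means in LKO. Smpd1 was 64.6, 63.6, 63.4, 61.1 and 70.0 CPM in control males and 53.8 to 63.1 (median 57.8) in LKO males, with a log2 change of -0.15 (SE 0.066, edgeR adjusted p 0.380). Tfeb was 18.7, 16.9, 18.1, 21.2 and 19.5 CPM in controls and 13.9 to 19.5 (median 16.3) in LKO males, with a log2 change of -0.21 (SE 0.099, edgeR adjusted p 0.393). Both pairs of groups overlapped. Ctsl stood at -0.17 (SE 0.088, edgeR adjusted p 0.456) and Ctsh, an aminopeptidase, at -0.19 (SE 0.10, edgeR adjusted p 0.466). For Smpd1, Ctsl and Ctsh all 6 LKO males were below the control mean, and for Tfeb 5 of 6 were. None of these differences passed the test.

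**Figure D3:**
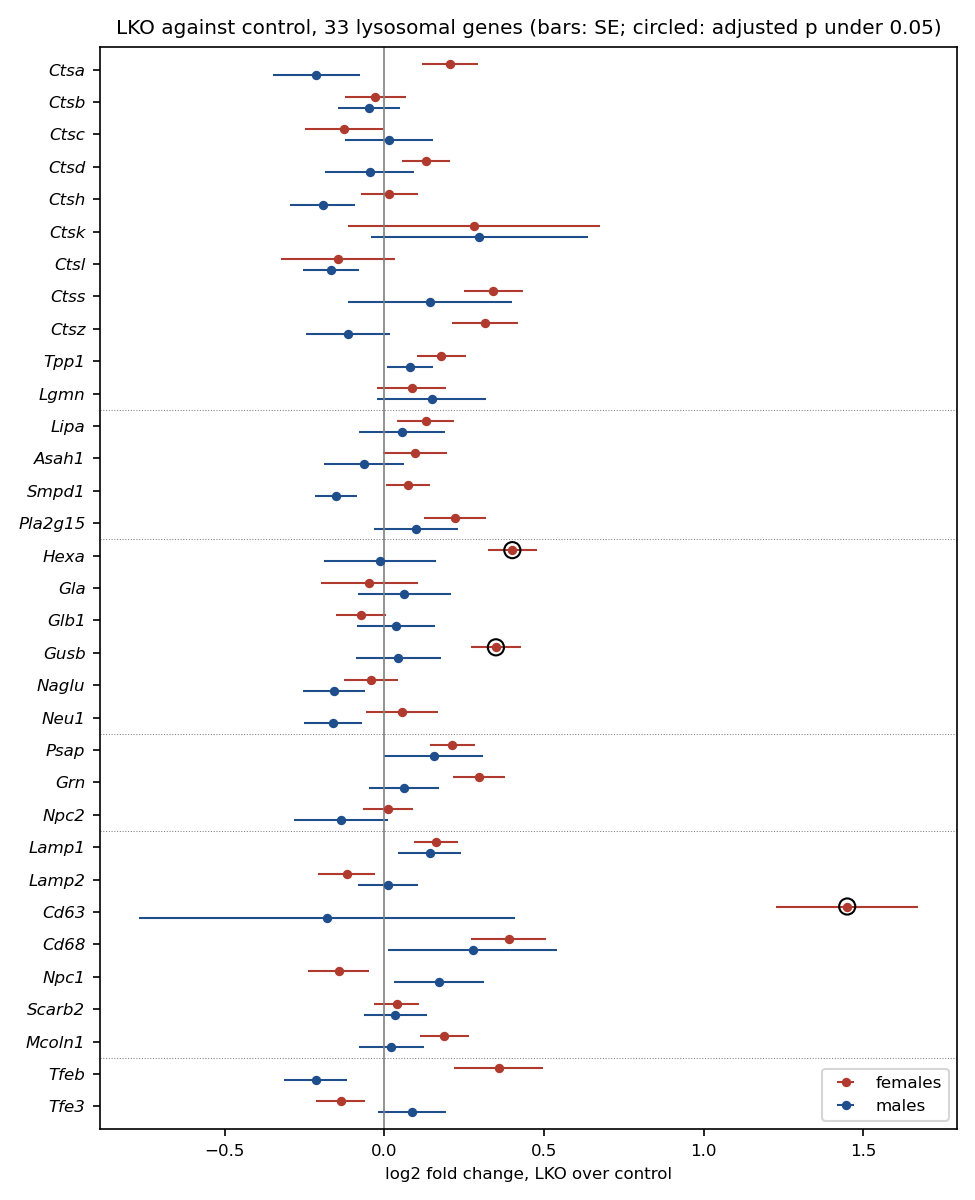
Log2 change of LKO over control with SE for the 33 genes, females and males in separate colours, grouped by role. The 3 circled values, Cd63, Hexa and Gusb in females, are the only ones with an adjusted p under 0.05 in this plot, and the male SE of Cd63 (0.59) exceeds its female SE (0.22).

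Whether the genotype difference itself differed between the sexes was tested in 1 fit of all 23 livers. No member and none of 14503 genes was called (0% of all genes, edgeR). At an unadjusted p under 0.05 there were 6 members (18.2%), against 12.9% of all genes, and DESeq2 called none of the members. The lowest p was that of Tfeb, for which the female minus male difference in log2 change was 0.57 (SE 0.18, edgeR adjusted p 0.208). For Cd63 it was 1.62 (SE 0.66, edgeR adjusted p 0.326), for Hexa 0.41 (SE 0.19, edgeR adjusted p 0.366) and for Gusb 0.31 (SE 0.16, edgeR adjusted p 0.416). A difference between the sexes in the response of these genes was therefore not shown, although 3 were called in females and none in males. Sex coincides with the deposited table, so the sexes cannot be told apart from any difference between the tables.

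Livers of one group differed from each other, and in males part of that spread ran in parallel with Gpnmb. Gpnmb was 38.6, 4.75, 35.5, 0.566 and 2.98 CPM in control males and 2.04 to 47.0 (median 16.2) in LKO males, so both male groups held livers with very low and very high levels. In control females it was 0.531 to 2.30 CPM (median 1.0) and in LKO females 5.16 to 22 (median 8.20), with no overlap. Its log2 change was 3.22 (SE 0.42, edgeR adjusted p 0.00256) in females and 0.30 (SE 0.82, edgeR adjusted p 0.924) in males. Co-variation was measured as the slope of each gene on log2(CPM + 1) of Gpnmb within a sex, with genotype in the model, so that the difference between the groups did not enter it.

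In males the slope was positive for 15 members and negative for 1 at an adjusted p under 0.05. These are 45.5% and 3.03% of the set, against 6.04% and 4.69% of 13804 genes tested (edgeR). The median slope was 0.077 for the set and -0.0020 for all genes. Cd63 had the steepest called slope, 0.71 log2 units per log2 unit of Gpnmb (SE 0.061, edgeR adjusted p 8.88e-05). The other slopes were shallow: Psap 0.16 (SE 0.024), Gusb 0.14 (SE 0.022), Hexa 0.18 (SE 0.031) and Ctsd 0.13 (SE 0.026), with edgeR adjusted p-values of 0.00234, 0.00257, 0.00440 and 0.00700.

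By role, 6 of the 11 peptidases were called with a positive slope in males: Ctsd, Ctss, Ctsk, Ctsb, Ctsz and Lgmn, an asparaginyl endopeptidase. Ctsk had the steepest of these at 0.32 (SE 0.075) and Ctsb the shallowest at 0.077 (SE 0.022). Of the lipid hydrolases Lipa (0.12, SE 0.028) and Asah1 (0.10, SE 0.028) were called, while Smpd1 was at -0.00021 (SE 0.021). The called glycosidases were Hexa and Gusb, and all 6 glycosidases had a positive slope. Psap and Grn (0.089, SE 0.024) were called among the activators. Among the membrane proteins, Cd63, Cd68 (0.24, SE 0.051) and Lamp1 (0.074, SE 0.022) had positive slopes, and Lamp2, whose splice forms serve chaperone-mediated and macroautophagy, had the 1 negative slope called (-0.073, SE 0.021, edgeR adjusted p 0.0405). Tfeb (0.017, SE 0.032) and Tfe3 (-0.0056, SE 0.034) were not called, nor was the cholesterol exporter Npc1 (-0.013, SE 0.046).

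Not all of these calls held when 1 liver was left out. Of the 16, the 7 genes Cd63, Psap, Gusb, Hexa, Ctsd, Lgmn and Cd68 passed in all 11 fits that left out 1 liver. The number of members called fell to 8 without control male replicate 3, to 8 without control male replicate 4, to 8 without LKO male replicate 3, to 9 without control male replicate 1 and to 10 without LKO male replicate 1. The called slope of Lamp1 passed in none of the 11, and that of Lamp2 was -0.027 and not called when libraries were scaled by their totals alone.

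**Figure D4:**
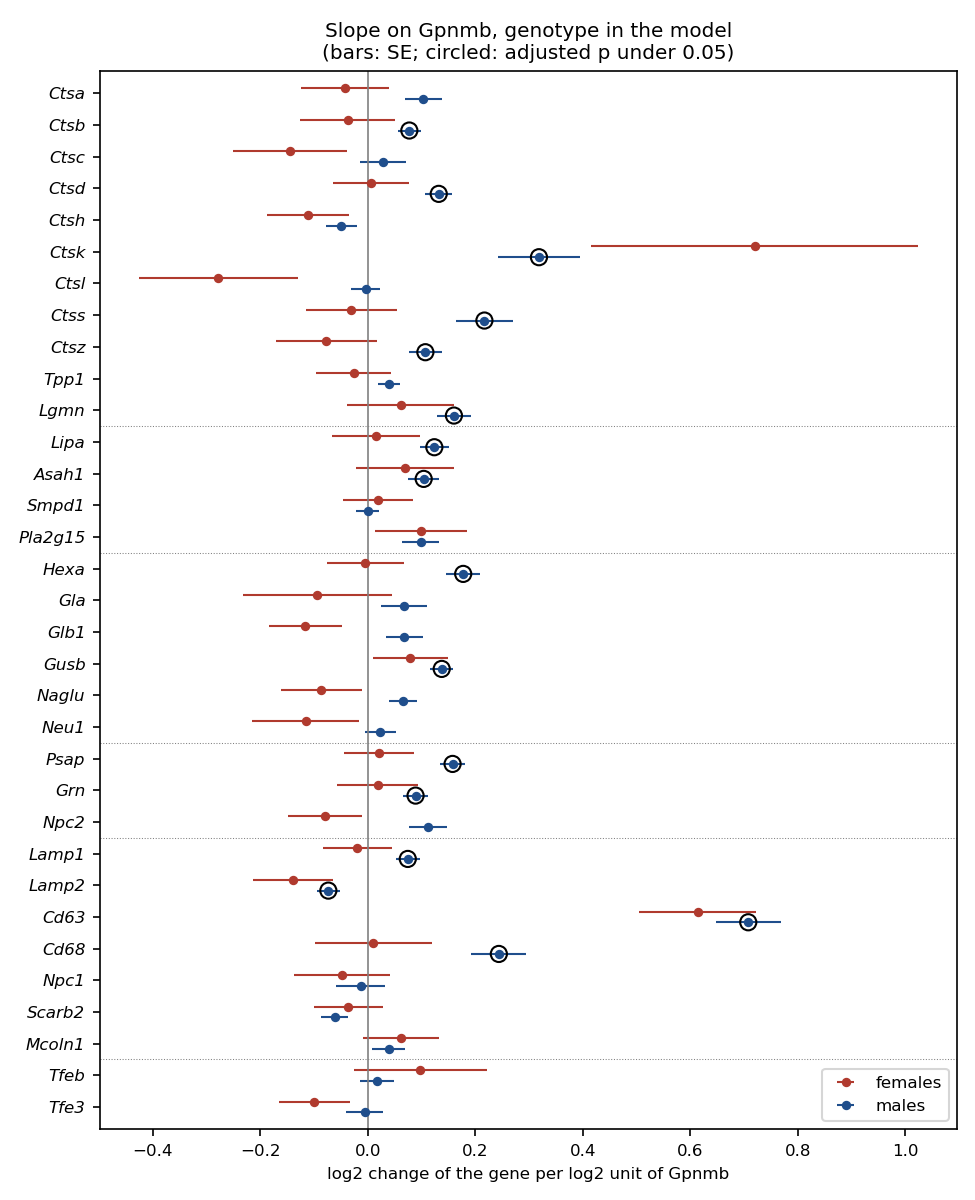
Slope of each of the 33 genes on log2(CPM + 1) of Gpnmb with SE, with genotype in the model, females and males in separate colours. Circles mark the 16 male slopes with an adjusted p under 0.05, of which Cd63 (0.71) is the steepest and Lamp2 (-0.073) the only negative one.

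The values by liver show what these slopes rest on. Control male replicates 1 and 3 and LKO males 3 and 4, which had the most Gpnmb, had Psap at 837, 809, 880 and 913 CPM. Control male 4 and LKO male 1, with the least Gpnmb, had Psap at 494 and 563 CPM. For Ctsd, the highest male values were 538 and 497 CPM in control males 1 and 3 and 506 CPM in LKO male 3, and the lowest were 339 CPM in control male 4 and 341 CPM in LKO male 1. Lamp2 ran the other way, at 479 CPM in control male 4 and 464 in LKO male 1 against 361 and 357 CPM in control male 3 and LKO male 3. Control and LKO livers were thus found at both ends of the range. Over all members, control male 3 held the highest male value in 9 genes and control male 1 in 8, while control male 4 held the lowest in 9 and the highest in 5.

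As correlations of deviations from the genotype means across 11 males, Cd63 had a Pearson r of 0.96 (two-sided permutation p 0.00036) and a Spearman rho of 0.95 (permutation p 0.00051). For Psap r was 0.95 (permutation p 0.00036) and rho 0.90 (permutation p 0.00175), and for Gusb r was 0.95 (permutation p 0.00015) and rho 0.97 (permutation p 0.00029). Lamp2 had an r of -0.91 (permutation p 0.00042) and a rho of -0.88 (permutation p 0.00145). Leaving out the 2 livers farthest from the median of Gpnmb, control male 4 and LKO male 1, gave r of 0.92, 0.89, 0.93 and -0.81. Correlations were computed for 33 genes per sex, and these permutation p-values are not adjusted, the adjustment over all genes being that of the slope. Within the 6 LKO males alone, r was 0.97 for Cd63 (two-sided exact permutation p 0.00694 over 720 pairings) and 0.97 for Gusb (exact p 0.00417). The median r of the 33 genes was 0.71 in males, where 26 were positive. The livers of a sex share their library preparation and depth with every gene, which these values do not remove.

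In females no member and none of 13683 genes was called for the slope (0% of all genes, edgeR, and 0 with limma-trend). Slopes were less precise than in males, with an SE of 0.065 against 0.024 for Psap and 0.070 against 0.022 for Gusb. Gpnmb itself had only 8 to 34 counts in control females. The absence of calls therefore does not show that slopes as shallow as most of those in males are absent. At an unadjusted p under 0.05 there were 2 of the 33 (6.06%), Cd63 and Ctsk, against 4.93% of all genes. Cd63 had a slope of 0.61 (SE 0.11, edgeR adjusted p 0.791), close in size to that in males. Its deviations correlated with those of Gpnmb across the 12 females at an r of 0.87 (two-sided permutation p 0.00244) and a rho of 0.90 (permutation p 0.00233), and r was 0.80 without LKO females 3 and 4. Within the 6 control females r was 0.84 (two-sided exact permutation p 0.0278) and rho 0.89 (exact permutation p 0.0333). Within the 6 LKO females r was 0.88 (exact permutation p 0.0389) and rho 0.77 (exact permutation p 0.103). Both measures were thus positive in each group, and these p-values are not adjusted. Ctsk had a slope of 0.72 (SE 0.30, edgeR adjusted p 0.941) at a level of only 0.199 to 2.36 CPM. The next lowest p-values were those of Ctsl (-0.28, SE 0.15), Lamp2 (-0.14, SE 0.074) and Glb1, beta-galactosidase (-0.12, SE 0.068), each with an edgeR adjusted p of 0.941. The sign of Ctsl turned with the replicate number as a block. The median r of the 33 genes in females was -0.13, with 14 positive, over the deviations of both groups together. Within a group r could differ in size or sign. For Gusb it was 0.97 in control females (exact permutation p 0.00139, not adjusted) and 0.29 in LKO females. For Ctsc it was 0.61 in control and -0.75 in LKO females, and for Tpp1 0.72 and -0.40. The slope is common to both genotypes, and whether the relation differed between them was not tested.

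**Figure D5:**
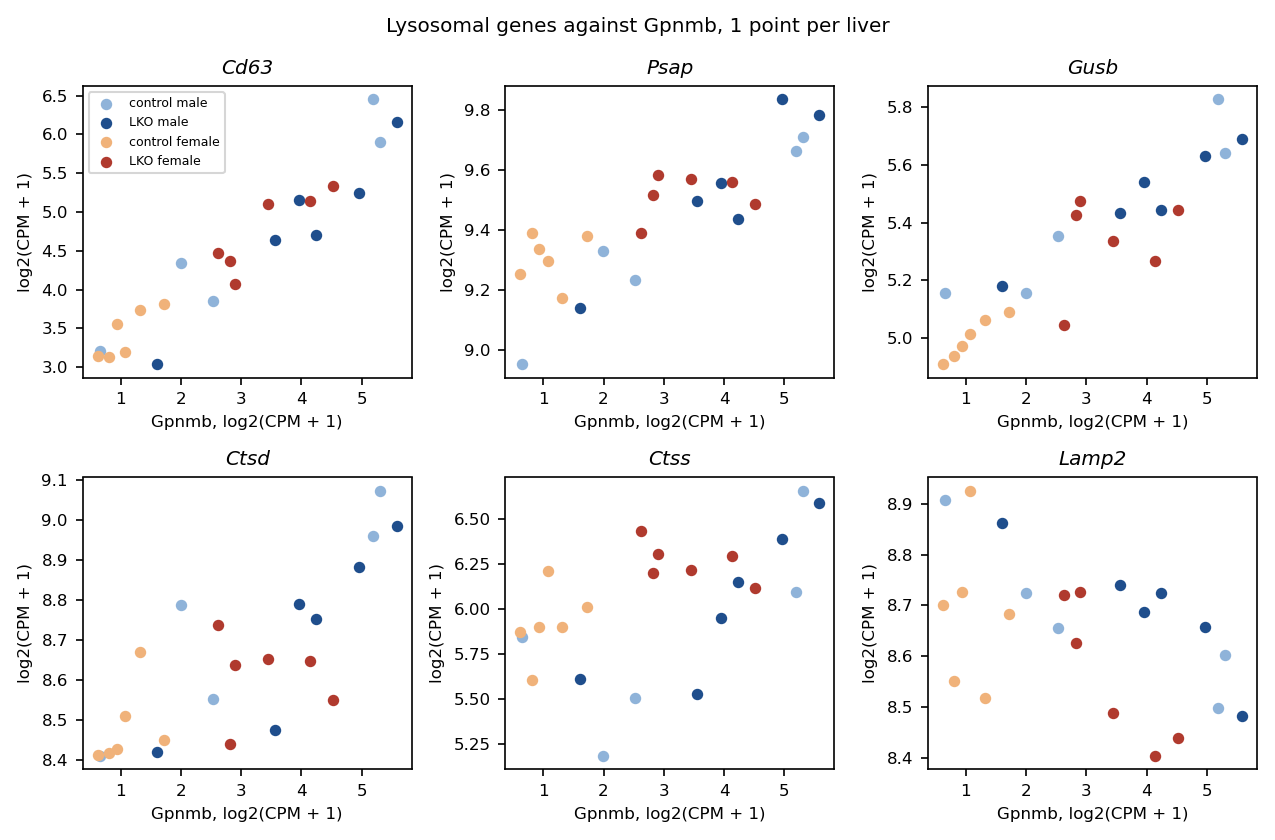
Log2(CPM + 1) of Cd63, Psap, Gusb, Ctsd, Ctss and Lamp2 against that of Gpnmb, 1 point per liver, colours for the 4 groups. Cd63 is higher in livers with more Gpnmb in both sexes, and the male points of Psap, Gusb and Ctsd rise across both genotypes while those of Lamp2 fall.

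The slopes themselves were not shown to differ between the sexes. In a fit with a sex-specific slope, added after the data were seen, no member and none of 14502 genes was called for the difference (0% of all genes, edgeR). At an unadjusted p under 0.05 there were 4 members with a lower slope in females than in males, Hexa, Npc2, Glb1 and Psap (12.1%, against 3.16% of all genes), and none with a higher one. For Glb1 the slope was -0.12 in females and 0.068 in males. The female minus male difference was -0.18 (SE 0.082, edgeR adjusted p 0.900) for Hexa and -0.094 (SE 0.15, edgeR adjusted p 0.975) for Cd63.

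Levels spread differently across genes within a sex. From the lowest to the highest liver, the median member spanned 1.49-fold in females and 1.57-fold in males. Cd63 spanned 12-fold in males and 5.06-fold in females, and Ctsk, at 3 counts in its lowest liver, spanned 4.56-fold in males and 11.9-fold in females. Only 5 members in males and 4 in females spanned more than 2-fold. The steadiest was Ctsd in females (1.25-fold) and Tpp1, a tripeptidyl peptidase, in males (1.26-fold).

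Other lysosomal genes were read from lists of the same pathway. Of 36 other lysosomal enzymes and activators, 1 rose in LKO females and none fell: Dpp7, a dipeptidyl peptidase, was 18.8 to 21.6 CPM in control and 24.8 to 32.4 in LKO females (log2 change 0.50, SE 0.082, edgeR adjusted p 0.00862). The median of that list was 0.14. None of 24 other lysosomal membrane proteins, 19 subunits of the proton pump that acidifies the lumen and 12 sorting factors was called in females, with medians of 0.055, 0.12 and 0.11. Of 15 tested genes of the TFEB family and of lysosomal nutrient sensing, Rragd, a Rag GTPase that is itself known as a target of TFEB, rose in LKO females by 0.83 (SE 0.19, edgeR adjusted p 0.0487). Of all genes tested in females 0.928% were called higher, and the single calls of Dpp7 and Rragd describe these genes, not their lists. No gene of these lists was called in males, against 0.00724% of all genes.

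On Gpnmb in males, 8 of the 36 other enzymes were called with a positive slope and none with a negative one, led by Galns (0.29, SE 0.031, edgeR adjusted p 0.000350), Man2b2 (0.11) and Prcp (0.17). Positive slopes were also called for 3 of 24 membrane proteins, led by the calcium channel Tpcn2 (0.24, SE 0.045). Of 19 pump subunits 4 were called, led by Atp6v0d2 (0.53, SE 0.090, edgeR adjusted p 0.00384). The sorting adaptor Gga2 (0.13, SE 0.035) was 1 of 12 in its list. Rragd (0.55, SE 0.099, edgeR adjusted p 0.00465) was 1 of 15. Over all genes 6.04% had a called positive slope, so these single calls are close to that share and describe the genes, not their lists. No slope of these lists was called in females.

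Markers of cell types were measured in the same comparisons. In LKO females 5 of 8 lipid-associated macrophage markers rose, against 0.928% of all genes tested. The lowest p-values were those of Mmp12 (2.50, SE 0.29), Gpnmb itself and Trem2 (1.32, SE 0.18). The other two called were Lpl (1.03, SE 0.18) and Spp1 (0.66, SE 0.12), while Itgax (1.17, SE 0.28), Cd9 (-0.029, SE 0.17) and Fabp5 (-1.08, SE 0.48, edgeR adjusted p 0.296) did not pass. The summed level of the 8 was 94.9 to 288 CPM in control and 194 to 258 in LKO females, 124 to 361 in control and 144 to 415 in LKO males. None of 16 general macrophage markers was called in females, and their summed level was 987 to 1856 CPM in control and 1285 to 1925 in LKO females. In males the summed macrophage markers were 699 to 1403 CPM in control and 1032 to 1674 in LKO livers. On Gpnmb in males, positive slopes were called for 6 of 7 lipid-associated macrophage markers (Trem2 0.69, SE 0.049), against 6.04% of all genes. They were also called for 4 of 6 stellate cell and fibroblast markers (Col3a1 0.44, SE 0.051). Of 16 macrophage markers 1 was called (Ms4a7 0.46, SE 0.084), close to the share of all genes, and 5 had negative slopes. The stellate and fibroblast markers summed to 206 to 263 CPM in control and 189 to 365 in LKO females, and to 198 to 450.1 in control and 214 to 501 in LKO males. Hepatocyte markers had negative slopes in 7 of 7, of which 4 were called (Cps1 -0.27, SE 0.059), against 4.69% of all genes. They summed to 85533 to 105249 CPM in control and 60678 to 96046 in LKO females, and to 60662 to 88950 in control and 55923 to 79716 in LKO males, with none called for genotype. Of the endothelial, T cell, B cell, neutrophil and cholangiocyte markers none was called for genotype or slope in either sex, and Ly6g was at 0 in every control female. None of the macrophage, stellate or hepatocyte markers was at 0 in any library, and their part in the slopes and fold changes of the lysosomal genes was not tested.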

How the data were processed

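Per the labels' protocols, poly(A) RNA from liver was made into dUTP libraries. The authors deposited 1 table per sex with raw counts, normalized counts (a signal: count over a size factor), FPKM, gene length, group means and, for their own comparison, log2 fold changes with p-values before and after adjustment. The submitters' processing notes name HISAT2 2.0.5 and mm39 without a role, and the counter and its strand setting are not given in the sources used here. By the positions in the tables, 10 of the 33 genes overlap another gene, 2 of them on the same strand (Glb1 with Tmppe, Ctss with a pseudogene), so reads there are uncertain.

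Deposited counts were tested with edgeR 4.0.16 in R 4.3.3 (filterByExpr, TMM factors, quasi-likelihood test, Benjamini-Hochberg adjustment over all genes tested, threshold 0.05). Each sex was fitted alone, and the interaction and the difference in slope in 1 fit of 23 livers. CPM is TMM-scaled, and the pseudocount for slopes and correlations is 1. Correlations used 100000 resamples within genotype, or all 720 pairings within a group of 6. Scripts were tested on simulated data. Alternatives used other scaling, filters, a replicate block, DESeq2 1.42.0, limma 3.58.1 and left-out livers. Promoters are RefSeq sequences of GRCm38.p6, a build other than that of the tables.

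The members and gene lists were chosen with earlier results of these data known. Genes given with full statistics were the members called in either sex or in the interaction, the 6 lowest p-values in females and 4 in males, the 5 lowest slope p-values per sex, Tfeb and Tfe3, with Gpnmb and Cpt1a as checks. Psap, Lamp1 and Ctsz in females, Cd63, Hexa and Gusb in males and further slopes were added to complete each role. From the other lists, up to 3 called genes with the lowest p were named. No sample column was unmapped. No 2 libraries agreed within sampling noise: the lowest chi-square per degree of freedom was 11.6 over 55 pairs of one group. Control male 4 stood far from its group, at 84.2 to 121, where other pairs of control males reached at most 42.5. LKO female 6 stood at 61.8 to 78.4, where other pairs of LKO females reached at most 43.0.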

Additional observations from a re-analysis of the deposited data

Results flagged for a closer look

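In 5 of 132 combinations of gene and group, 1 liver stood apart from the others of its group by Dixon's criterion, and chance gives about 1 in 20. Ctsd was 406.6 CPM in control female replicate 2, against 339.7 to 363 in the other 5. Ctsh was 361 CPM in LKO female replicate 1, against 265 to 292. Ctsl was 836 CPM in LKO female replicate 6, against 409 to 540.2. Neu1 was 76.2 CPM in LKO male replicate 5, against 57.0 to 64.2. Tpp1 was 69.3 CPM in control female replicate 5, against 77.4 to 82.0. The 3 high values in females fell in 3 different livers.

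For Ctsa, protective protein and carboxypeptidase, all 6 LKO females were above the control mean of their sex and all 6 LKO males were below theirs. The female minus male difference in log2 fold change was 0.42 (SE 0.16) and did not pass the test (edgeR interaction adjusted p 0.294). Ctsa overlaps Pltp and Neurl2 on the opposite strand, and whether the counting used strand is not given in the sources used here.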

How the results depend on the processing

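In females 194 genes were called in all and 3 members. DESeq2 gave 554 and 6, a fit of all 4 groups 94 and 0, and the replicate block 334 and 4 (Cd63, Hexa, Ctss and Cd68, with Gusb at an adjusted p of 0.0628). Leaving out 1 liver gave 87 to 233 genes and 1 to 3 members, the lowest in both without control female replicate 5. In males 1 gene was called. Library size alone, no filter and the block gave 2, at least 10 counts in every sample 3, all 4 groups 5, DESeq2 106, and leaving out 1 liver 1 to 2. No alternative called a member in males. The interaction, at 0 genes, reached 88 with DESeq2 and 17 without control male replicate 4 (0 to 17 over left-out livers), and 0 members in every setting. Slopes in females, at 0, reached 299 genes and 2 members without the genotype term, which lets the group difference into the slope. Slopes in males, at 834 positive and 648 negative genes and 16 members, fell to 261 and 3 (Cd63, Hexa and Psap) with the block, where Cd68, Ctsd, Lgmn and Gusb had adjusted p-values of 0.0667, 0.0687, 0.0754 and 0.0931, and ranged over 743 to 1687 genes and 8 to 16 members with 1 liver left out.

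Signs turned for small male fold changes. Cd63 was 0.21 with the block, 0.044 on log2(FPKM + 1), 0.069 on log2(FPKM + 0.1) and -0.54 to 0.41 over left-out livers. Hexa was 0.025 with library size alone, 0.028 with the block, 0.020 and 0.021 on the same 2 FPKM scales, and -0.15 to 0.10 over left-out livers. Gusb ranged from -0.023 to 0.17. The female slope of Ctsl was 0.16 with the block. The cause was not tested.

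Same-numbered control and LKO livers correlated at -0.0068 to 0.20 in females and -0.39 to 0.42 in males, above 0.1 in 5 of 6 female and 1 of 5 male pairs. Not every pair passed 0.1 and the labels name no shared litter or day, so the numbers were not used as pairs. In 4 of 6 female and 1 of 5 male pairs the control correlated best with its own number, a hint of pairing in females that comes from the data and not from the design. Depth limits mainly Ctsk, at 0.199 CPM in its lowest liver, and Gpnmb, against which the slopes were measured. Gpnmb had 8 to 34 counts in control females and 7 in its lowest control male.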
